A study of Rattus norvegicus with 16 samples.

Results

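Heat shock proteins and their partner chaperones were measured in hearts of 2-day-old rats of 2 inbred strains. In HHR, the Hypertrophic Heart Rat, the heart size is labelled hypertrophic, and NHR, the Normal Heart Rat, serves as the control with a normal heart size. The genes were chosen by symbol: those starting with Hspa, Hspb, Hspd, Hspe, Hsph, Hsp90, Dnaja, Dnajb, Dnajc, Bag or Cct followed by a number, together with Hsf1 and Hsf2. This gave 78 genes on 87 probe sets, of 14324 genes and 27342 probe sets on the array, and the brightest probe set stood for each gene. There were 16 arrays in 4 groups, with 4 females and 4 males of each strain, and none of the animals is labelled as treated. Each array held the RNA of a single animal, and the p-values set differences against the spread between these animals. The animals are treated as independent. The labels name no litters, so whether some shared a litter is not known.

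Chaperones bind proteins that are unfolded or partly folded and keep them from clumping. Members of the Hsp70 family do this in cycles of ATP hydrolysis that J proteins start and nucleotide exchange factors end, while Hsp90, the small heat shock proteins and the ring-shaped chaperonins each serve other clients or stages of folding. The transcription factor HSF1 switches on many of these genes under stress by binding heat shock elements, which are repeats of a short unit in alternating orientation. In cardiac muscle chaperones are needed to build and maintain sarcomeres, and raised levels of the stress-inducible ones protect the heart from ischaemic injury.

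All values are log2 expression values, and a difference is HHR minus NHR over both sexes, with the standard error (SE) of the model. A gene was called when its adjusted p was below 0.05 in limma with Benjamini-Hochberg adjustment over all probe sets. Array medians lay between 7.19 and 7.28. Among NHR arrays the spread was wide, toward opposite ends of the leading component of deviations from the group means. NHR female 3, NHR female 4 and NHR male 4 lay at 14.4, 15.1 and 22.6. NHR female 1, NHR female 2, NHR male 1 and NHR male 2 lay at -16.9, -12.6, -11.1 and -13.2. NHR male 3 was at 1.74, and the HHR arrays lay between -3.72 and 7.48. Results that depend on NHR female 3, NHR female 4 and NHR male 4 are given without these 3 arrays as well. That setting was chosen after the data were seen and removes arrays of a single end. Deviations from group means cannot say which end is the unusual one. The cardiac label was borne out by bright cardiomyocyte genes, with a mean over 10 such markers of 13.10 to 13.34 on every array. Of these 10 markers 7 were lower and 0 higher in HHR. Atrial markers were also present on every array, and the labels disagree on whether atria were removed. Of 6 atrial markers 3 were called higher in HHR and 1 lower (median 0.34), with list means of 9.73 to 10.61 on HHR arrays and 9.36 to 10.08 on NHR arrays. Bmp10 differed by 1.05, Kcnj3 by 0.57 and Nppa by 0.34, and all 3 stayed called without the 3 NHR arrays (0.93, 0.53 and 0.34). Kcna5 differed by -0.34 and was not called in that setting (limma adjusted p = 0.133). Bmp10 and Nppa were called in females (1.745 and 0.524) and not in males (0.361 and 0.165). Their strain by sex interactions were not called (-1.384 and -0.360, limma adjusted p = 0.243 and 0.964). These marker levels moved with the strain contrast used throughout, and their part in the chaperone results was not tested.

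Heat shock elements are shown first, since HSF1 acts by binding them. Of the 78 genes, 64 matched an entry of the RefSeq promoter table of assembly GRCr8 by gene ID, with 65 promoters of 300 bases each, running from 250 bases before the start site. The motifs searched were GAANNTTC and TTCNNGAA, each its own reverse complement and so found on both strands at once. Either motif was present in 20 of the 65 promoters (30.8%), against 5305 of 33469 promoters in the whole table (15.9%). The 3-unit form, in which one of each motif overlaps the other by 3 letters, was present in 6 (9.23%), against 267 of the whole table (0.798%), in Cct4, Dnaja1, Hspa8, Hspd1, Hspe1 and Hsph1. A match is a run of letters and not a measured binding site. The stretches below show 1 matched stretch of 50 bases for each of 7 heat shock genes described in the results, with its GAA and TTC units in capitals, written 5′ to 3′ on the strand of the gene. Hspa8, Hsph1 and Dnajb1 have further matches elsewhere in their promoters that are not shown.
Hspe1: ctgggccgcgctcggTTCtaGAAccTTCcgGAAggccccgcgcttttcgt
Hspd1: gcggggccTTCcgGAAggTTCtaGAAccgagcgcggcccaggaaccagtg
Hspa8: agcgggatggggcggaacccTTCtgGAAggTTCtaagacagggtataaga
Hsph1: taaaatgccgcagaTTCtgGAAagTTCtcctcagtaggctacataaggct
Hspb1: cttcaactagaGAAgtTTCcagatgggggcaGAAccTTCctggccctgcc
Dnajb1: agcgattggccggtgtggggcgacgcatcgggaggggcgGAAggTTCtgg
Bag3: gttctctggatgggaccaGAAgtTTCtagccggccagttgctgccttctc
In GRCr8 the Hspe1 stretch is chr9:64084247-64084296 (+ strand) and that of Hspd1 is chr9:64084238-64084287 (- strand). The Hspa8 stretch is chr8:50080439-50080488 (+ strand) and that of Hsph1 is chr12:10427318-10427367 (+ strand). Hspb1 is shown at chr12:26432392-26432441 (- strand) and Dnajb1 at chr19:41431142-41431191 (- strand). The Bag3 stretch is chr1:192533310-192533359 (+ strand). All of them lie upstream of the annotated start site.

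Between the strains, 21 of the 78 genes differed (26.9%), of which 12 were higher (15.4%) and 9 lower (11.5%) in HHR. Over all probe sets 20.7% were called, 9.64% higher and 11.0% lower, so the shares among the chaperones lay near the background. Among probe sets with a single gene symbol, as the members had, 12.0% were called higher and 11.3% lower. The counts by role given below rest on few genes each and are to be read against these shares. The 78 differences split evenly, 39 above and 39 below 0, with a median of -0.003. All probe sets did not, with 10755 above and 16587 below 0 and a median of -0.029. The median size of the 78 differences, 0.088, was close to the 0.084 of all probe sets. Most called differences were small: the sizes ran from 0.12 to 0.60 with a median of 0.26, 10 reached 1.2-fold and 1 reached 1.5-fold. All 8 HHR arrays lay below every NHR array for 3 of the called genes, Dnaja4, Dnajb2 and Bag2 (2.18% of all probe sets), and for 0 genes did they lie above (1.95% of all probe sets). Without the 3 NHR arrays named above, 14 genes were called, and 14.6% of all probe sets.

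**Figure D1:**
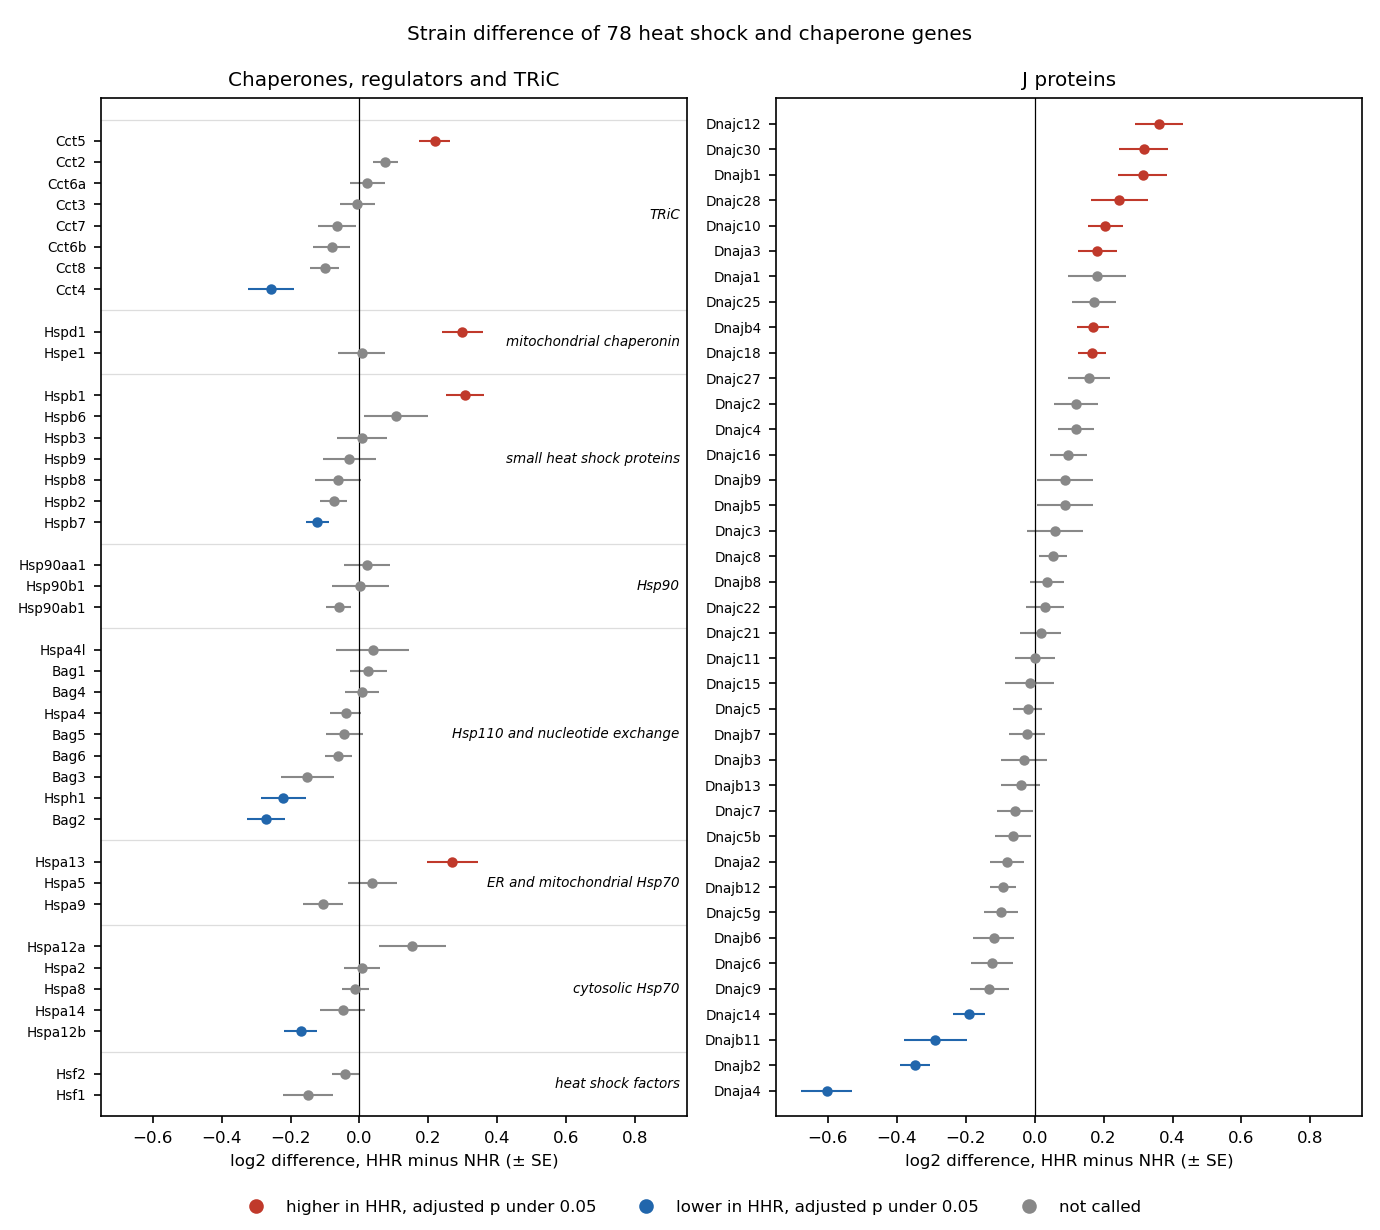
Strain difference of each of the 78 genes (x axis: log2 difference, HHR minus NHR; bars: SE of the model; y axis: genes by role), with called genes in colour. Called genes stand on both sides in the J proteins, TRiC and the small heat shock proteins, and the lowest is Dnaja4 at -0.60.

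The heat shock factors were not called. Hsf1, which encodes the main stress-responsive regulator, ran from 8.91 to 9.33 in HHR (median 9.22) and from 9.06 to 9.42 in NHR (median 9.33), a difference of -0.15 (SE 0.07, limma adjusted p = 0.155). The strains overlapped, with 3 HHR arrays below the lowest NHR array. Without the 3 NHR arrays the difference was -0.24 and was called (adjusted p = 0.0388). Hsf2, a related factor with developmental roles, had means of 10.70 ± 0.07 in HHR and 10.74 ± 0.06 in NHR (SD, n = 8 each; adjusted p = 0.515).

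Among the 5 cytosolic Hsp70 genes, 0 were higher and 1 was lower. Hspa8, the constitutive Hsp70 that folds new proteins and uncoats clathrin, lay at 13.86 to 14.02 in HHR and 13.87 to 14.06 in NHR, with a difference of -0.01 (SE 0.04, adjusted p = 0.871). Its 8 probe sets gave differences from -0.02 to 0.08, of which 0 were called, although it has processed pseudogenes whose signal an array may not separate. The promoter shown above holds a 3-unit element. The stress-inducible Hspa1 genes share a probe set that lists several symbols, and so gave no value. Hspa12b, a distant relative made mainly in endothelium, was the gene that fell. Its values ran from 8.22 to 8.44 in HHR (median 8.36) and from 8.36 to 8.60 in NHR (median 8.53), with 4 HHR arrays below the NHR range, and the difference was -0.17 (SE 0.05, adjusted p = 0.0153). Of 5 endothelial markers 4 fell in HHR (0 rose; median -0.20), among them Cldn5 by 0.41 and Tie1 by 0.22. The mean over these markers was 10.11 to 10.32 on HHR arrays and 10.34 to 10.53 on NHR arrays. The same number of them fell without the 3 NHR arrays. The part of this in the Hspa12b result was not tested, and in whole tissue fewer cells of a type and less RNA per cell cannot be told apart.

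In the endoplasmic reticulum (ER) and mitochondria, 1 of 3 Hsp70 genes rose. Hspa13, a microsomal Hsp70-like ATPase, lay between 8.95 and 9.17 in HHR (median 9.04) and between 8.58 and 9.15 in NHR (median 8.73). The difference was 0.27 (SE 0.07, adjusted p = 0.0162), but only 2 HHR arrays passed the highest NHR array and the call was lost without the 3 NHR arrays (0.20, adjusted p = 0.138). Hspa5 (BiP), the principal ER chaperone and a sensor of unfolded protein, had means of 13.25 ± 0.15 in HHR and 13.21 ± 0.15 in NHR (SD, n = 8; adjusted p = 0.761). Hspa9 (mortalin), which pulls proteins into the mitochondrial matrix, had means of 11.90 ± 0.06 and 12.01 ± 0.15 (SD, n = 8; adjusted p = 0.217). Its highest value, 12.33, was that of NHR male 4.

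The Hsp110 and Bag genes, grouped by symbol, showed 2 falls and 0 rises among 9 genes (median -0.04). This group includes nucleotide exchange factors, which reset Hsp70. Bag2 both exchanges nucleotide and inhibits the ubiquitin ligase CHIP that works with Hsp70. Its values were 9.55, 9.59, 9.60 and 9.54 in HHR females and 9.54, 9.60, 9.61 and 9.50 in HHR males. In NHR they were 9.68, 9.85, 9.73 and 9.98 in females and 9.63, 9.91, 10.02 and 9.90 in males. HHR was uniformly low, with a standard deviation of 0.04 against 0.14 in NHR, and the strains did not overlap. The difference of -0.27 (SE 0.06, adjusted p = 0.00242) corresponds to a 1.21-fold lower level.

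Hsph1 (Hsp105), an Hsp110 family member that is both exchange factor and holdase, lay between 8.14 and 8.69 in HHR (median 8.32) and between 8.48 and 8.77 in NHR (median 8.56). On 7 of 8 HHR arrays it was below every NHR array, the exception being HHR male 1 at 8.69. The difference was -0.22 (SE 0.07, adjusted p = 0.0240). That call was narrow: it was lost on leaving out HHR female 4, HHR male 3 or HHR male 4 (adjusted p of 0.0504 to 0.0530), without the 3 NHR arrays (adjusted p = 0.0721) and after median centring (adjusted p = 0.0557). Bag3, the co-chaperone that works with Hspb8 and Hsp70 in clearing damaged sarcomere proteins and whose mutations cause cardiomyopathy, was not called at -0.15 (SE 0.08, adjusted p = 0.179). HHR values lay between 10.25 and 10.43 and NHR values between 10.06 and 10.71, so the HHR range fell wholly inside that of NHR. The lowest NHR value was that of NHR male 4. Without that array Bag3 was called lower (adjusted p = 0.0152), and without the 3 NHR arrays the difference was -0.30 (adjusted p = 6.59e-04).

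For Hsp90, which matures kinases, steroid receptors and myosin, 0 of 3 genes were called. The stress-inducible cytosolic form Hsp90aa1 differed by 0.02 (SE 0.07, adjusted p = 0.857), the constitutive Hsp90ab1 by -0.06 (SE 0.04, adjusted p = 0.257) and the ER form Hsp90b1 by 0.00 (SE 0.08, adjusted p = 0.986). Hsp90ab1 was the tightest of them, 12.74 to 12.84 in HHR and 12.78 to 12.92 in NHR. After cyclic loess it was called lower at -0.12 (adjusted p = 0.0234).

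Small heat shock proteins hold unfolding proteins in large assemblies without using ATP, and of 7 genes 1 rose and 1 fell. Hspb1 (Hsp27), which protects actin filaments, read 12.20, 12.02, 12.13 and 11.92 in HHR females and 12.16, 12.14, 12.07 and 12.00 in HHR males. In NHR it read 11.68, 11.97, 11.84 and 11.71 in females and 11.64, 11.65, 11.82 and 11.84 in males. Every HHR array except HHR female 4 lay above every NHR array, and a single NHR array, NHR female 2, reached into the HHR range. The difference was 0.31, or 1.24-fold (SE 0.06, adjusted p = 0.00111). Its promoter, shown above, holds a pair of separate 2-unit matches.

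Hspb7, the cardiovascular small heat shock protein needed for sarcomere assembly, moved the other way. It lay between 12.90 and 12.97 in HHR (median 12.92) and between 12.96 and 13.15 in NHR (median 13.05), with 7 of 8 HHR arrays below every NHR array. The difference of -0.12 (SE 0.03, adjusted p = 0.0173) was the smallest of all called members, and the call was lost after median centring (adjusted p = 0.0643). Cardiomyocyte markers fell too, 7 of 10 being lower and 0 higher in HHR (median -0.17), with list means of 13.10 to 13.22 in HHR and 13.19 to 13.34 in NHR. Of the 10 markers 4 were called lower without the 3 NHR arrays. Their part in the Hspb7 result was not tested. Hspb8, the partner of Bag3, had means of 9.69 ± 0.11 in HHR and 9.75 ± 0.16 in NHR (SD, n = 8; adjusted p = 0.557).

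The mitochondrial chaperonin is a barrel of Hspd1 (Hsp60) capped by its co-chaperonin Hspe1 (Hsp10). Their start sites face away from each other with 289 bases between them, and the 4 units shown in both stretches above are the same bases read from opposite strands. Hspd1 values were 12.26, 12.23, 12.24 and 12.31 in HHR females and 12.26, 12.26, 12.26 and 12.07 in HHR males. In NHR they were 11.93, 12.00, 11.68 and 11.65 in females and 12.11, 12.21, 11.98 and 11.92 in males. On 7 of 8 HHR arrays Hspd1 was above the NHR range, the exception being HHR male 4 at 12.07, and the difference was 0.30 (SE 0.06, adjusted p = 0.00193). A second, dimmer Hspd1 probe set was called as well, at 0.37 (adjusted p = 0.00144). Leaving out the 3 NHR arrays brought the difference of the brighter probe set to 0.20 (adjusted p = 0.0173).

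Hspe1, by contrast, was not called. Its values were 11.57, 11.35, 11.41 and 11.46 in HHR females, 11.61, 11.39, 11.46 and 11.50 in HHR males, 11.31, 11.44, 11.58 and 11.44 in NHR females, and 11.23, 11.45, 11.46 and 11.80 in NHR males. The HHR range lay inside that of NHR, and the difference was 0.01 (SE 0.07, adjusted p = 0.957). Within each array, Hspd1 minus Hspe1 averaged 0.77 ± 0.11 in HHR and 0.47 ± 0.30 in NHR (SD, n = 8). This is a contrast chosen after the values were seen. The change in that quantity between strains was 0.29, with p = 0.025 in a two-sided exact permutation test within sex over 4900 arrangements. It rested in part on the 3 NHR arrays, since without them it was 0.11 (exact permutation p = 0.18 over 525 arrangements). The quantity compares changes and says nothing of the relative amounts of the proteins, because the levels of separate probe sets are not on 1 scale.

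**Figure D2:**
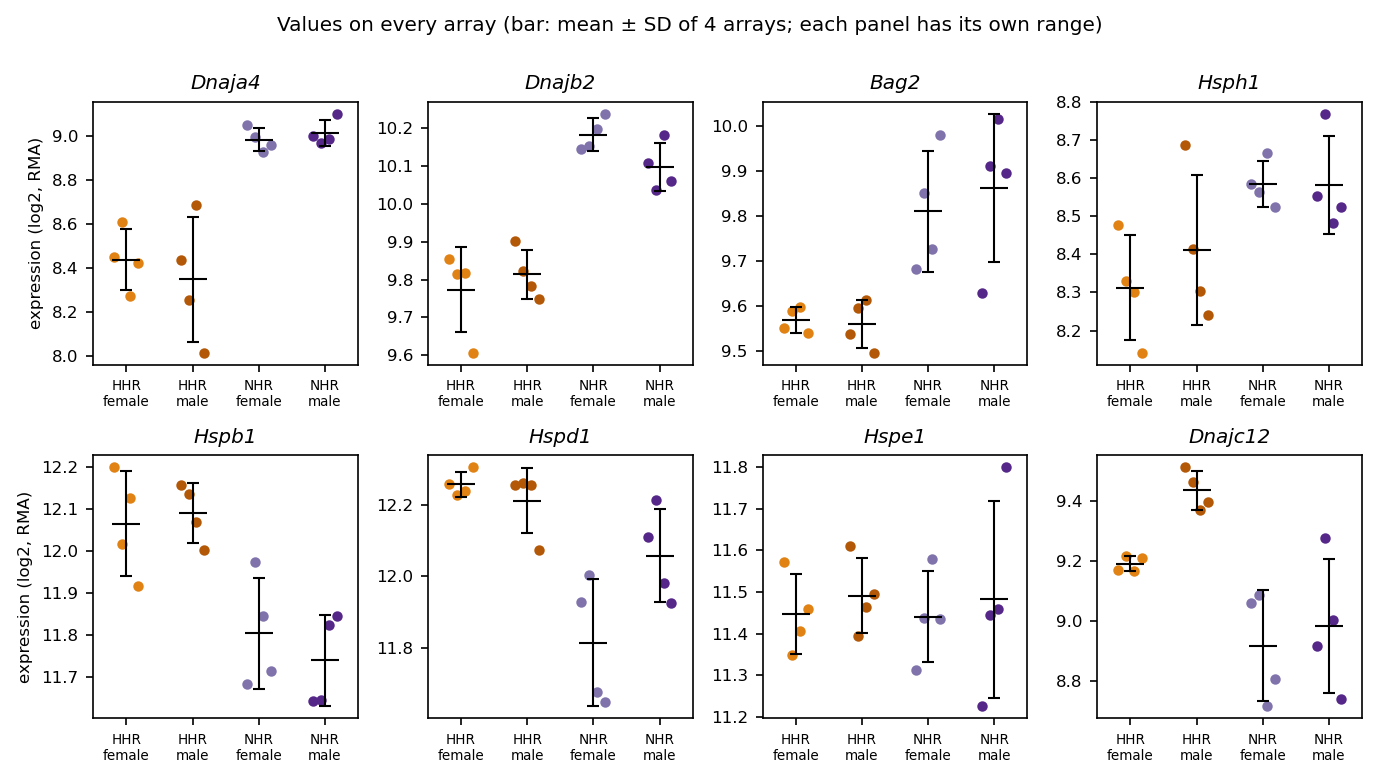
Expression on every array for 8 genes (y axis: log2 expression, with a range of its own in each panel; x axis: the 4 groups; bars: mean ± SD of 4 arrays). Dnaja4, Dnajb2 and Bag2 show no overlap between strains, Hspd1 and Hspb1 are higher on most HHR arrays, and Hspe1 overlaps throughout.

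The cytosolic chaperonin TRiC, a ring complex that folds actin and tubulin, is built of rings of related subunits. Of 8 Cct genes measured, 1 rose and 1 fell, with a median of -0.04. Cct5 values lay between 12.03 and 12.18 in HHR (median 12.10) and between 11.68 and 12.15 in NHR (median 11.90). The difference was 0.22 (SE 0.05, adjusted p = 0.00310), yet only 1 HHR array passed the highest NHR array, NHR male 2 at 12.15, which stood apart from the other NHR males at 11.91 to 11.93. Cct4 went down by contrast, with 10.42 to 10.61 in HHR (median 10.54) and 10.60 to 11.03 in NHR (median 10.75). The difference was -0.26 (SE 0.07, adjusted p = 0.0107), and 6 HHR arrays were below the NHR range. The 3 highest Cct4 values were those of NHR female 3, NHR female 4 and NHR male 4, at 11.01, 10.91 and 11.03, and without these arrays the difference was -0.14 and was not called (adjusted p = 0.0816). The other 6 Cct genes, Cct6b among them, ran from -0.10 to 0.08.

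J proteins, which deliver clients to Hsp70 and trigger its ATPase, made up 39 of the 78 genes and 12 of the 21 called, with 8 higher and 4 lower (median 0.03). These were 20.5% higher and 10.3% lower, against 9.64% and 11.0% of all probe sets and 12.0% and 11.3% of those with a single symbol. Dnaja4, a cytosolic J protein, had the largest difference of the 78 genes. It read 8.45, 8.61, 8.27 and 8.42 in HHR females and 8.44, 8.26, 8.69 and 8.02 in HHR males. It read 9.05, 9.00, 8.93 and 8.96 in NHR females and 9.00, 8.97, 8.99 and 9.10 in NHR males. Every HHR array lay below every NHR array. The difference was -0.60 (SE 0.07, adjusted p = 4.05e-05), a 1.52-fold lower level. Spread was wider in HHR (SD 0.21) than in NHR (SD 0.05), and HHR male 4 was the lowest.

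Dnajb2, known for carrying misfolded clients to the proteasome and for neuromuscular disease when mutated, was also fully separated. It read 9.86, 9.82, 9.82 and 9.61 in HHR females and 9.90, 9.82, 9.78 and 9.75 in HHR males, against 10.15, 10.15, 10.20 and 10.24 in NHR females and 10.11, 10.04, 10.18 and 10.06 in NHR males. The difference was -0.35 (SE 0.04, adjusted p = 5.88e-05), or 1.27-fold lower. Dnajc14, a membrane-bound J protein of the ER, lay between 9.25 and 9.45 in HHR and between 9.41 and 9.66 in NHR, with 6 HHR arrays below the NHR range, and differed by -0.19 (SE 0.05, adjusted p = 0.00805).

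Dnajb11, the ER J protein that partners Hspa5, was the least secure of the falls. Values ran from 9.51 to 10.16 in HHR (median 9.80) and from 9.88 to 10.25 in NHR (median 10.16), with 4 HHR arrays below the NHR range, and the difference was -0.29 (SE 0.09, adjusted p = 0.0317). Leaving out any 1 of 9 arrays ended the call, with adjusted p of 0.0544 to 0.0679. These were HHR female 2, HHR female 4, HHR male 3, HHR male 4, NHR female 2, NHR female 3, NHR female 4, NHR male 3 and NHR male 4. It was lost without the 3 NHR arrays too (-0.24, adjusted p = 0.169), and with array weights (adjusted p = 0.0624).

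Of the 8 J proteins that rose, Dnajc12, a cytosolic partner of Hsp70 for the aromatic amino acid hydroxylases, had the largest difference. It read 9.17, 9.22, 9.17 and 9.21 in HHR females, 9.51, 9.46, 9.37 and 9.40 in HHR males, 9.06, 9.09, 8.72 and 8.81 in NHR females, and 8.92, 9.28, 9.00 and 8.74 in NHR males. All HHR males were above every NHR array, and HHR females were above every NHR female. The difference was 0.36 (SE 0.07, adjusted p = 0.00157), or 1.28-fold, and 0.24 when the 3 NHR arrays were left out (adjusted p = 0.0109). Dnajc30, an inner mitochondrial membrane protein tied to complex I repair and ATP synthase, lay between 8.34 and 8.69 in HHR (median 8.47) and between 7.96 and 8.39 in NHR (median 8.23). It passed the NHR range on 6 HHR arrays, with a difference of 0.32 (SE 0.07, adjusted p = 0.00412).

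Dnajb1 (Hsp40), the classic stress-inducible partner of Hsp70 and a known HSF1 target, ran from 9.18 to 9.53 in HHR (median 9.35) and from 8.72 to 9.37 in NHR (median 9.03). The difference was 0.31 (SE 0.07, adjusted p = 0.00499), with 4 HHR arrays above the NHR range. NHR female 3 and NHR female 4 were its lowest arrays, at 8.83 and 8.72, and without the 3 NHR arrays it was not called (0.22, adjusted p = 0.0567). Dnaja1, another cytosolic partner of Hsp70, was not called at 0.18 (SE 0.08, adjusted p = 0.136), and was called on leaving out HHR male 4 (adjusted p = 0.0441) or NHR male 2 (adjusted p = 0.0371). Dnajb4, found in heart and skeletal muscle, differed by 0.17 (SE 0.05, adjusted p = 0.0140), with 11.04 to 11.29 in HHR and 10.83 to 11.16 in NHR and 4 HHR arrays above that range.

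The other rises were smaller or less steady. Dnajc10 (ERdj5), an ER disulfide reductase, differed by 0.21 (SE 0.05, adjusted p = 0.00803), with 9.81 to 10.04 in HHR and 9.58 to 9.99 in NHR. Dnajc18 differed by 0.17 (SE 0.04, adjusted p = 0.00774), and 6 HHR arrays were above the NHR range. Neither was called without the 3 NHR arrays (adjusted p = 0.0660 and 0.0702). Dnaja3 (Tid1), a mitochondrial J protein whose loss causes dilated cardiomyopathy in mice, differed by 0.18 (SE 0.06, adjusted p = 0.0296), and 2 HHR arrays passed the NHR range. That call ended without any 1 of 7 arrays, with adjusted p of at most 0.0653, namely HHR female 1, HHR female 4, HHR male 1, HHR male 3, NHR female 3, NHR female 4 and NHR male 3. Without the 3 NHR arrays its adjusted p was 0.0995. Dnajc28 was the weakest, at 0.25 (SE 0.08, adjusted p = 0.0428) with 1 HHR array beyond the NHR range. It was lost with array weights (adjusted p = 0.0622), without the 3 NHR arrays (adjusted p = 0.188), and without any 1 of 10 arrays (adjusted p of 0.0566 to 0.0893). Those were HHR females 1, 3 and 4, HHR males 1, 2 and 3, NHR females 2 and 4, and NHR males 3 and 4.

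Promoter matches were found on both sides of the strain difference. Either motif was present in 5 of 10 promoters of genes called higher, 2 of 9 of genes called lower and 13 of 46 of genes not called. Of the 6 genes with the 3-unit form, Hspd1 was called higher, Hsph1 and Cct4 were called lower, and Dnaja1, Hspa8 and Hspe1 were not called.

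The sexes were then taken separately. In males, 5 of the 78 genes were called (4.02% of all probe sets): Dnaja4, Dnajb2, Bag2, Hspb1 and Dnajc12. In females, 12 were called (12.0% of all probe sets). Dnaja4, Dnajb2 and Hspb1 were called in both, at -0.54 in females and -0.66 in males for Dnaja4, -0.41 and -0.28 for Dnajb2, and 0.26 and 0.35 for Hspb1. Hspd1 was called in females (0.44, SE 0.08, adjusted p = 0.00318) and not in males (0.15, SE 0.08, adjusted p = 0.323), and its strain by sex interaction was not called (-0.29, SE 0.12, adjusted p = 0.969). Cct5 in females was at 0.30 (adjusted p = 0.00810) and in males at 0.14 (adjusted p = 0.251). Dnajc25, which was not called over both sexes, was called in females (0.29, SE 0.09, adjusted p = 0.0440). Without the 3 NHR arrays 5 genes were called in males and 4 in females, against 4.61% and 4.53% of all probe sets. Of the calls named here, Bag2 in males and Hspb1, Cct5 and Dnajc25 in females were lost in that setting. The Hspb1 call in females was also lost after quantile normalization and after cyclic loess. Single arrays weighed heavily on the counts in each sex. In males 2 genes were called without HHR male 1, and 3 without HHR male 2, HHR male 4 or NHR male 3. In females 4 were called without HHR female 1 or NHR female 4, 5 without NHR female 3 and 7 without HHR female 4.

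The strain effect was not found to differ between the sexes. For the interaction, 0 of the 78 genes were called by limma (0% of all probe sets), with a lowest adjusted p of 0.969, and 4 had an unadjusted p under 0.05, where 5.08% of all probe sets did. The direction was the same in both sexes for 60 of 78 genes (76.9%, against 71.4% of all probe sets) and for 21 of the 21 called, a group chosen on the mean of both sexes. Between males and females 0 of the 78 were called (0.0110% of all probe sets), with a lowest adjusted p of 0.694, a largest difference of 0.19 in size, and 4 unadjusted p under 0.05 (6.40% of all probe sets).

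**Figure D3:**
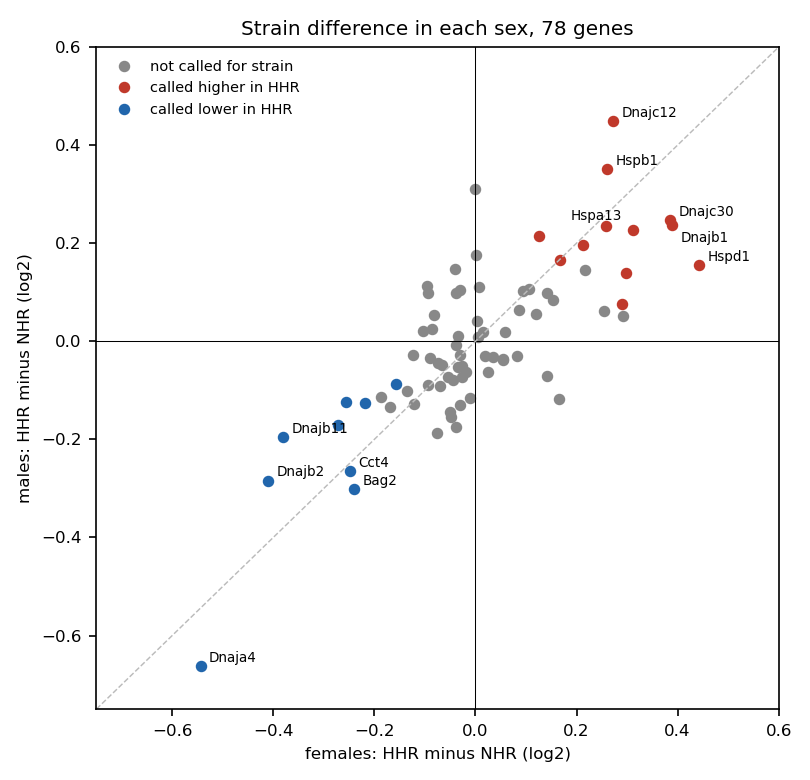
Strain difference in females (x axis) against males (y axis), both as log2 HHR minus NHR, for the 78 genes; the dashed line marks equal differences. The axes use different animals, and the 21 called genes lie in the quadrants of equal sign, with Dnaja4 at -0.54 and -0.66.

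Animals of 1 group also differed among themselves. The largest pooled standard deviations within groups were those of Hspa4l (0.24), an Hsp110 relative, Hspa12a (0.22), the small heat shock protein Hspb6 (0.21), Dnajb11 (0.20) and the ER Hsp90, Hsp90b1 (0.19). For Hspa4l the lowest arrays of the 4 groups were HHR female 4 at 6.83, HHR male 4 at 6.69, NHR female 4 at 6.86 and NHR male 4 at 6.73. The array numbered 4 was the lowest of its group in all 4 groups for 4 of the 78 genes, Hspa8, Hspa5, Hsf1 and Hspa4l (5.13%, against 1.58% of all probe sets), and the highest in all 4 for 0 genes (1.01% of all probe sets). The labels do not say whether a shared number marks a shared litter, day or batch. Deviations from the group means over all probe sets were also correlated between arrays of different groups. Of the 16 arrays, 9 correlated best on average with arrays of their own number. Of 6 pairs per number, 5 correlated above 0.1 for number 4, 3 each for numbers 1 and 2, and 0 for number 3. What a shared number stands for was not tested. The median standard deviation of the 78 genes was 0.0930 in HHR females, 0.0946 in HHR males, 0.0981 in NHR females and 0.125 in NHR males. Over all probe sets it was 0.0864, 0.0940, 0.117 and 0.123.

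**Figure D4:**
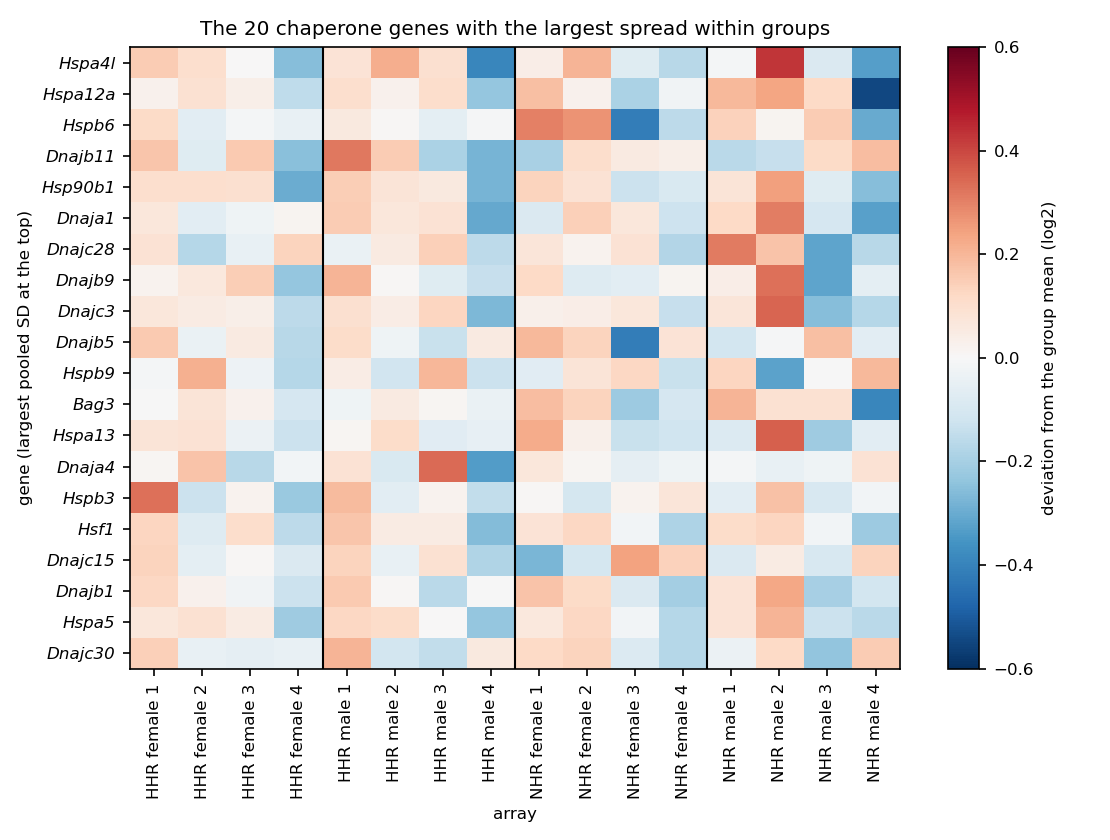
Deviation of each array (columns) from the mean of its group, in log2 units (colour), for the 20 genes with the largest pooled standard deviation within groups (rows). Arrays numbered 4 are blue for Hspa4l in all 4 groups, and NHR male 2 is red for Hspa13 and Dnajc3.

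Partners outside the symbol rule were counted by list, and genes beyond the 2 with the smallest p in a list were named after their values were seen. Among all probe sets 9.64% were called higher and 11.0% lower, and 1.95% and 2.18% were called with no overlap between strains. Without the 3 NHR arrays the Hsp90 and Hsp70 lists each gave 1 higher and 1 lower. The HSF1 and TRiC lists each gave 0 higher and 2 lower there. In that setting the ER list gave 0 higher and 1 lower, and the mitochondrial list 2 higher and 1 lower. Of 17 listed Hsp90 co-chaperones, 14 were measured, of which 1 rose and 2 fell. Ptges3 (p23), which stabilises closed Hsp90, rose by 0.47 (SE 0.10, adjusted p = 0.00205), with all 8 HHR arrays at 9.95 to 10.27 above the NHR arrays at 9.28 to 9.94. Leaving out the 3 NHR arrays brought its difference to 0.29 (adjusted p = 0.00984). Unc45b, the muscle co-chaperone that folds myosin, fell by 0.24 (SE 0.04, adjusted p = 0.00135), with 10.63 to 10.71 in HHR and 10.80 to 11.08 in NHR, again without overlap. Its general form Unc45a fell by 0.15 (adjusted p = 0.0172), a call lost without the 3 NHR arrays (adjusted p = 0.0756). Among Hsp70 partners, 8 of 10 were measured, with 1 higher and 2 lower. The exchange factor Hspbp1 rose by 0.39 (SE 0.08, adjusted p = 0.00299), while St13 (Hip), which holds Hsp70 in its ADP form, fell by 0.22 (SE 0.05, adjusted p = 0.00585) and the ER exchange factor Hyou1 by 0.28 (adjusted p = 0.0119). Of these, St13 was not called without the 3 NHR arrays (adjusted p = 0.0596), and the Hspbp1 difference was 0.24 there (adjusted p = 0.0230).

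Further HSF1 targets and relatives gave 1 rise and 2 falls among 8 measured of 12. Serpinh1 (Hsp47), the collagen chaperone of the ER, fell by 0.31 (SE 0.06, adjusted p = 0.00149) and had no overlap, at 11.73 to 12.19 in HHR and 12.24 to 12.40 in NHR. Of 7 fibroblast markers 3 rose and 0 fell beside it. Sqstm1 (p62), the autophagy receptor, fell by 0.33 (SE 0.07, adjusted p = 0.00240), and Cryab, the small heat shock protein most abundant in muscle, rose by 0.12 (SE 0.04, adjusted p = 0.0346) with all 8 HHR arrays above NHR. The Cryab call was lost without the 3 NHR arrays (adjusted p = 0.139), where 2 fibroblast markers rose.

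Of 9 TRiC partners 7 were measured, with 1 higher and 2 lower. Pfdn5 and Pfdn2, subunits of the prefoldin complex that hands actin and tubulin to TRiC, fell by 0.44 (SE 0.08, adjusted p = 7.36e-04) and 0.23 (SE 0.05, adjusted p = 0.00377). Tcp1, the TRiC subunit whose symbol falls outside the rule, rose by 0.34 (SE 0.08, adjusted p = 0.00806), with 2 HHR arrays above the NHR range. When the 3 NHR arrays were left out, Tcp1 was at 0.19 and was not called (adjusted p = 0.0732), and Pfdn5 was called at a smaller difference of -0.29 (adjusted p = 0.00152).

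In the ER list 17 of 20 genes were measured, with 3 higher and 2 lower. Atf4, a regulator of the integrated stress response, fell by 0.24 (SE 0.05, adjusted p = 0.00179), and its target Ddit3 by 0.20 (adjusted p = 0.0321). Herpud1, an ER degradation factor, rose by 0.21 (SE 0.06, adjusted p = 0.0227), as did the ER stress sensor Atf6 by 0.14 (adjusted p = 0.0396) and the transcription factor Xbp1 by 0.32 (adjusted p = 0.0498). Only Atf4 was called without the 3 NHR arrays, where adjusted p was 0.191 for Ddit3, 0.162 for Herpud1, 0.159 for Atf6 and 0.426 for Xbp1. Of 11 mitochondrial folding and proteolysis genes, 10 were measured, with 1 higher and 2 lower. Trap1, the mitochondrial Hsp90, fell by 0.32 (SE 0.04, adjusted p = 1.22e-04), at 9.89 to 10.12 in HHR and 10.27 to 10.51 in NHR, with no overlap. Clpx, the unfoldase of the matrix protease, fell by 0.24 (adjusted p = 0.0358), and the inner membrane protease subunit Spg7 rose by 0.20 (SE 0.06, adjusted p = 0.0145). Without the 3 NHR arrays Clpx was at -0.10 and was not called (adjusted p = 0.201), and Tomm70, an import receptor, was called higher at 0.20 (adjusted p = 0.0156).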

How the data were processed

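The authors deposited log2 expression values made with RMA from Affymetrix Rat Gene 1.0 ST arrays (per the submitters' processing notes, where limma is listed too). Versions and build are not given in the sources used here. Per the labels' protocols, frozen heart tissue was extracted with a miRNeasy kit. RMA removes background, equalises arrays and combines the probes of a set, so small differences share its assumptions, and a strain variant under a probe can change a signal. The number of arrays limits the precision. Probe sets were named from the platform annotation: 15097 had 1 gene symbol, 323 several and 11922 none. Members needed a single symbol, and no low-value filter was applied.

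A mean per group was fitted to all 16 arrays with limma 3.58.1 in R 4.3.3, with 5 contrasts (strain, strain within males, strain within females, interaction, sex) and Benjamini-Hochberg adjustment over 27342 probe sets at 0.05. The fit was tested on simulated data with independent noise and the same spread in all 4 groups. Deviations shared between genes of an array, and spread that differs between groups as it did here, were not simulated. Groups and replicate numbers came from the sample titles. Members, gene lists and the naming rule were chosen with earlier results of these data known. All called members were named, with 12 others whatever their values, and up to 2 genes of each of 6 partner lists. Alternatives were quantile, cyclic loess and median centring of the arrays, a dim filter, single-gene probe sets, moderation, array weights, an additive model, stricter thresholds, another probe set of a gene, a replicate block, each array left out in turn, and 3 NHR arrays left out together.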

Additional observations from a re-analysis of the deposited data

Results flagged for a closer look

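Of 132 groups of 4 values examined among the named genes, 8 held 1 array far from the other 3, by Dixon's critical value for 4 samples; chance alone would mark about 1 group in 20. In HHR female 4, Hspa5 was at 13.002 (others 13.26 to 13.31), Hsp90b1 at 11.900 (others 12.29 to 12.30) and Dnajb2 at 9.607 (others 9.82 to 9.86). In HHR male 3, Hspa12b was at 8.244 (others 8.41 to 8.44) and Hspb7 at 12.971 (others 12.90 to 12.91). Hspd1 in HHR male 4 was at 12.074 (others 12.26), Dnajc30 in HHR female 1 at 8.654 (others 8.46 to 8.47) and Cct5 in NHR male 2 at 12.151 (others 11.91 to 11.93).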

How the results depend on the processing

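The interaction and sex counts stayed at 0 under every alternative run. Against 12 members higher and 9 lower in HHR, requiring 1.2-fold left 6 and 4. At adjusted p under 0.01, lower calls came to 4, calls in males to 1 (from 5) and calls in females to 4 (from 12). Calls in females were 19 with dim probe sets left out, a filter that kept 16900 probe sets and 69 members. Without NHR female 3, NHR female 4 and NHR male 4, a setting added after seeing the data, 6 members were higher and 4 were called in females. With 1 array left out at a time, members higher ranged from 10 to 16, lower from 7 to 10, in males from 2 to 7 and in females from 4 to 15. A replicate block gave 14 higher and 10 lower, the latter with Hsf1 (-0.15, adjusted p = 0.0234); the shared numbers do not pair the animals by the labels, and 11 of 24 same-number pairs correlated above 0.1. Of the 21 called members, 11 kept the call in the 26 alternatives that leave the threshold as it is (the additive model aside), and 0 changed sign. Of those 11, Cct5, Dnajb4, Dnajc14 and Hspa12b did not reach 1.2-fold, and Dnajb4 and Hspa12b did not reach adjusted p under 0.01. Among the 26 alternatives, the second brightest probe set repeats the reported fit except for the 3 members with more than 1 probe set. The 12 others named changed sign, never while called, in 29 of 312 fits. The causes of these shifts were not tested, beyond what fewer arrays or a stricter rule do by construction. Higher calls were 46.6% of all calls as reported and 56.3% after median centring (members 57.1% and 63.2%). Signal over background was not recorded, which limits what dim genes can show.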
